A study of Mus musculus with 2 samples.

Results

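The immunoglobulin V segments are the coding units from which B lymphocytes assemble the variable part of an antibody. The members were the annotated functional V segments of the heavy chain locus (symbols beginning with Ighv) and of the kappa light chain locus (symbols beginning with Igkv), taken by symbol and by the gene type IG_V_gene in a GRCm38 annotation. There were 213 members, 113 Ighv and 100 Igkv, among 53843 annotated genes and among 218 genes of that type. The other genes of the type were 3 Iglv segments and Gm42543 and Gm43218, which lie in the kappa array without the prefix. The members were joined to a list of 7367 chromatin boundaries.

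The boundaries were called from in situ Hi-C, which reads out pairs of DNA sites that were neighbours in the fixed nucleus. Boundaries mark places where contacts between the flanks drop. There was 1 group of untreated mature olfactory sensory neurons sorted for expression of the odorant receptor gene Olfr1507, from the olfactory epithelium of adult MOR28-GFP mice of strain 129P2/OlaHsd and mixed sex. Its 2 biological replicates of 170000 and 220000 cells, fixed with 1% formaldehyde and cut with DpnII, were combined by the authors before boundaries were called. The values below are therefore descriptions of 1 map, with no replicate error, no comparison of conditions and an unknown depth.

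In developing B cells, the RAG recombinase cuts at recombination signals that flank V, D and J segments and joins 1 segment of each kind. Heavy chain D to J joining comes first, V to DJ joining follows, and the V array is brought near the D and J segments by chromatin folding that involves CTCF and cohesin, the proteins that also form many domain boundaries. None of this joining takes place in neurons, where the segments keep their germline order.

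The Ighv array spanned 2.42 Mb, chr12:113578504-116000461, from Ighv5-2 next to the D and J segments to Ighv1-85 at the far end. All 113 members lay on the reverse strand, belonged to 16 families by symbol and had 78 V pseudogenes among them. The Igkv array spanned 3.15 Mb, chr6:67555497-70704177, from Igkv2-137 at the far end to Igkv3-1 next to the J segments. Of its 100 members, 38 lay on the forward strand and 62 on the reverse strand, in 20 families, with 74 V pseudogenes among them. No protein-coding gene lay inside either array.

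The recombination signal is the feature by which these segments recombine. The rule for members did not name it, but whether the annotation used it to set functional status or gene ends is not known here. It has a heptamer with the consensus CACAGTG, a spacer and a nonamer with the consensus ACAAAAACC. The signals shown follow directly on segments that lie at a boundary, read 5′ to 3′ on the strand of the segment from the C57BL/6J reference, with heptamer and nonamer in capitals. Igkv3-4 and Igkv10-96 have a spacer of 12 bases, Ighv5-9 and Ighv2-4 one of 23, and Ighv9-1 and Ighv1-71 are shown with 22, the spacer that left the fewest mismatches.
Igkv3-4: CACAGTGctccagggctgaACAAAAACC
Igkv10-96: CACAATGatataagtcataACATAAACC
Ighv5-9: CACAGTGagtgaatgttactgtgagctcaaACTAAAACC
Ighv2-4: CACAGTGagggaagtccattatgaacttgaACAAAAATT
Ighv9-1: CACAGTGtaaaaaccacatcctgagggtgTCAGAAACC
Ighv1-71: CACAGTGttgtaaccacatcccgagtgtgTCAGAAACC
The signal of Igkv3-4 (chr6:70672378-70672405) matches both consensus parts in full, and that of Igkv3-5 has the same letters. Igkv10-96 departs at 1 heptamer and 1 nonamer base (chr6:68631935-68631962). Ighv5-9 has 1 nonamer mismatch and Ighv2-4 has 2, as have Ighv9-1 and Ighv1-71.

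Nearly every Igkv segment carried such a signal. With up to 2 mismatches in the last heptamer bases and up to 4 in the nonamer, a signal with a 12-base spacer began within 10 bases of the annotated 3′ end in 98 of 100 Igkv members, against 31 of 74 pseudogenes of the array and 0.368% of protein-coding 3′ ends. A 23-base spacer gave a signal in 86 of 113 Ighv members (76.1%, 95% Wilson interval 67.5 to 83), 28 of 78 pseudogenes and 0.473% of protein-coding 3′ ends. The intervals here and below cover counting error only. The signal began directly at the annotated 3′ end in 96 of the 98 Igkv and 83 of the 86 Ighv members. How far the annotation itself sets the contrasts with pseudogenes and protein-coding genes was not tested. The 27 Ighv members without one included 11 of the 53 Ighv1 members, while the share with a signal was lowest in 3 smaller families: 0 of 4 Ighv14, 1 of 4 Ighv9 and 2 of 9 Ighv8 members had one. When a spacer 1 base shorter or longer was also accepted, a choice made after the data were seen, 102 Ighv members had a signal, against 1.25% of protein-coding 3′ ends. All 4 Ighv14 and all 4 Ighv9 members then had one, while Ighv8 stayed at 2 of 9. The fewest mismatches came with 22 bases in 52 members, 44 of them from the Ighv1 family, and with 23 bases in 48. The matched consensus was also better kept in Igkv. There 86 of 100 members had the full heptamer and 34 the full nonamer, against 66 and 3 of 113 in Ighv at 23 bases. With the spacer of fewest mismatches, 80 Ighv members had the full heptamer and Igkv stayed at 86, so that difference was smaller.

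The promoters of the 2 loci differed in the orientation of the octamer, the element that the transcription factors Oct-1 and Oct-2 bind. It is shown in capitals with its flanks for segments at boundaries, read on the strand of the segment.
Ighv5-9: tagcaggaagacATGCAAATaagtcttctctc
Ighv1-71: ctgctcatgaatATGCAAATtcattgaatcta
Igkv10-96: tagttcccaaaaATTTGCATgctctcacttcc
Igkv3-4: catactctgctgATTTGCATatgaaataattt
In the 250 bases before the annotated 5′ end, ATGCAAAT was found in 90 of 113 Ighv members and its reverse complement ATTTGCAT in 0. In Igkv the reverse complement was found in 72 of 100 members and the forward octamer in 2. Either orientation was found before 1.46% of protein-coding genes, nearly evenly split between both. The median position was 107 bases before the 5′ end in Ighv and 92.0 in Igkv. A match is a description of letters, not of a bound factor.

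The Ighv array held 6 boundaries in the neurons, 2 of the strong class, and the Igkv array held 4, also with 2 strong. The densities were 2.48 per Mb in Ighv (exact Poisson interval 0.909 to 5.39) and 1.27 per Mb in Igkv (0.346 to 3.25), beside 2.87 per Mb over chromosomes 1 to 19 and X, 2.61 on chromosome 12 and 2.89 on chromosome 6. At the genome density, 6.94 boundaries would fall in the Ighv span and 9.02 in the Igkv span. Among windows of the same length stepped by 100 kb along all chromosomes, 43.5% held as few boundaries as the Ighv array and 5.40% as few as the Igkv array. The Ighv count thus lay near the middle of the windows, whose median was 7, and the Igkv count in their lower tail, below a median of 9. The Poisson interval of each density includes the genome value. Per Mb of unique sequence, the measure of repetition given further on, the densities were 4.13 in Ighv and 2.20 in Igkv beside 3.43 in the genome, so Ighv lay above the genome on this basis and Igkv below it on both.

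**Figure D1:**
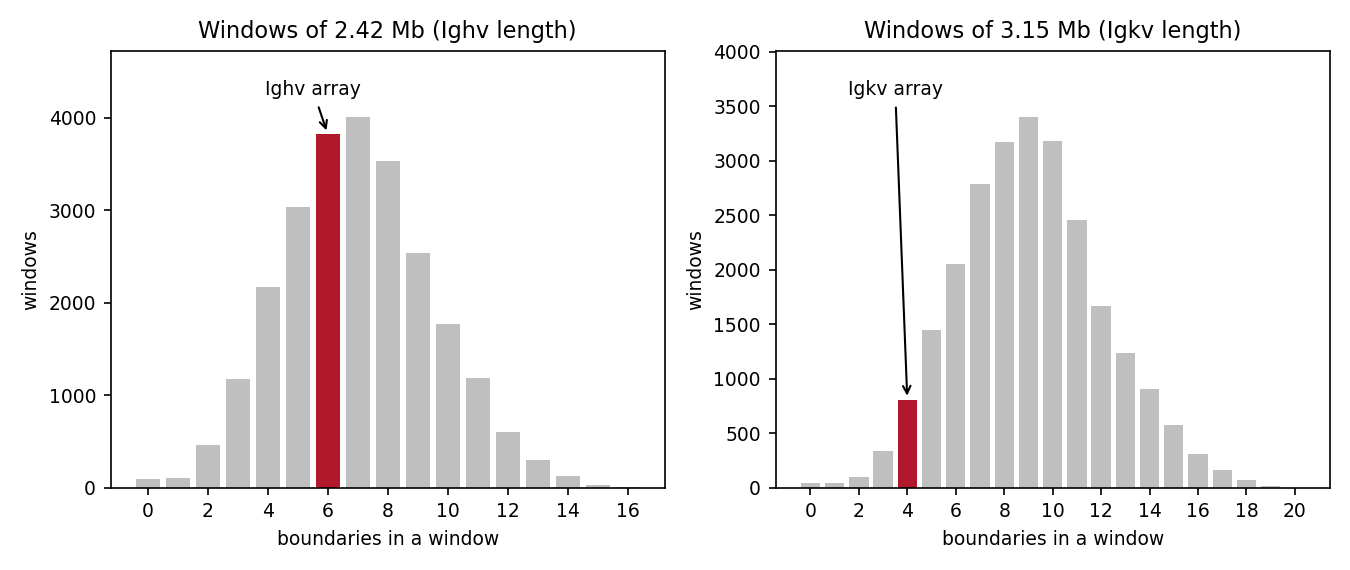
Number of boundaries (horizontal axis) in all windows of the length of the Ighv array (left) and of the Igkv array (right), stepped by 100 kb, with the number of windows on the vertical axis. The red bar marks the count of the array itself, 6 for Ighv and 4 for Igkv.

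Strength is the authors' own score per boundary, from 0.20 to 4.26 in the whole list, and a score of 0.5 parts the weak class from the strong. The 10 boundaries inside the arrays had a median strength of 0.305, beside 0.563 for all boundaries, and 4 of the 10 were strong (40%, Wilson 16.8 to 68.7) beside 55.0% in the list. Among the 1842 strongest boundaries of the list, 0 lay inside the Ighv array and 1 inside the Igkv array.

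The boundaries of the Ighv array are given from the D and J side outwards. The first, chr12:113650001-113655000, had a strength of 0.210, among the lowest in the list, and overlapped Ighv2-4 at 74.0 kb from the array edge. The next, chr12:114085001-114090000, had a strength of 0.334 and lay between Ighv16-1 and Ighv9-1, 6.43 kb from the latter. The third, chr12:114795001-114800000, lay in the middle of the array between Ighv1-26 and Ighv1-31 and had a strength of 0.506, just past the class change. It overlapped no gene. Further out, chr12:115570001-115575000 (0.268) lay 4.91 kb from Ighv8-11 and 20.6 kb from Ighv1-66, and chr12:115740001-115745000 (0.219) overlapped the exons of Ighv1-71. The last, chr12:115975001-115980000, was the strongest inside the array at 0.756 and lay between Ighv1-82 and Ighv1-84, 23 kb from the far edge. Thus 4 of the 6 were weak, among them both boundaries nearest to the D and J segments.

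Outside the Ighv array, the nearest boundary on the constant side was of another order. It lay at chr12:113215001-113220000, 361 kb from Ighv5-2 and beyond all constant region genes, 42.7 kb from the 5′ end of Igha, and had a strength of 2.55, rank 44 of 7367. It overlapped no gene, and the nearest protein-coding start site was that of Tmem121 at 31.6 kb. On the far side the next boundary lay 197 kb from Ighv1-85, with a strength of 0.667. Zfp386, the first protein-coding gene beyond Ighv1-85, and Vipr2 lay before it.

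**Figure D2:**
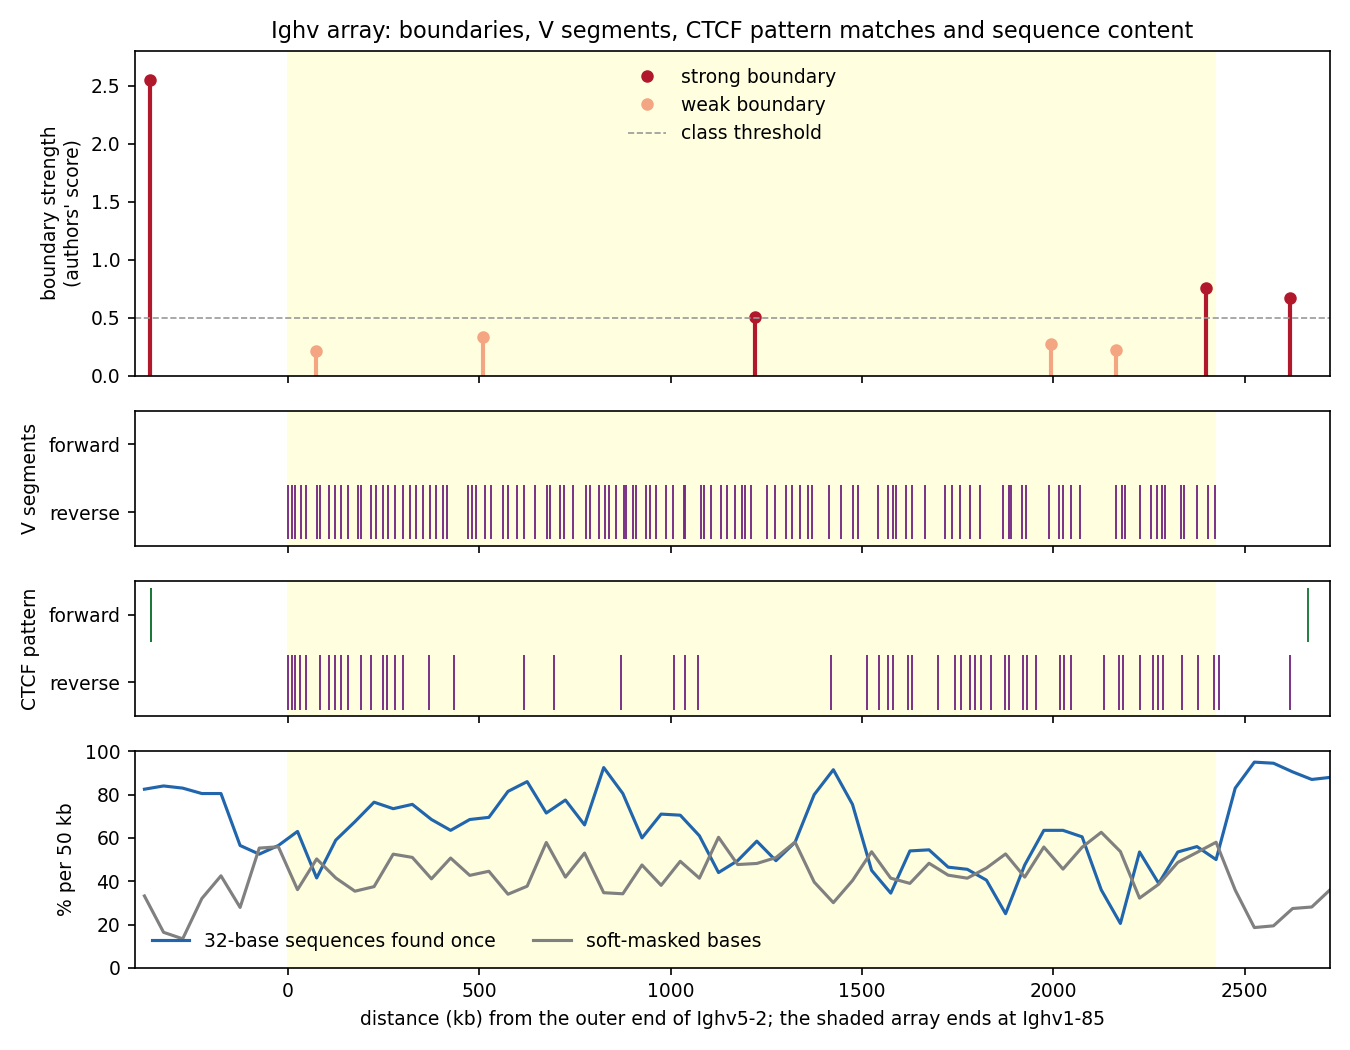
The Ighv array against distance in kb from the outer end of Ighv5-2. The panels show boundary strength (authors' score, red strong, orange weak, dashed line at 0.5), V segments by strand, CTCF pattern matches by strand, and the percent of 32-base sequences found once in the genome and of soft-masked bases per 50 kb. The array is shaded. The boundary at the constant side, with a strength of 2.55, stands above the 6 inside, which lie between 0.210 and 0.756.

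In the Igkv array the strong boundaries lay towards the ends and the weak ones between. At the far end, chr6:67690001-67695000 had a strength of 0.951 and lay 137 kb inside the edge, 82 kb from Igkv1-135. The weak boundaries chr6:68630001-68635000 (0.240) and chr6:70025001-70030000 (0.275) followed. The first overlapped Igkv10-96, and the other lay between Igkv1-35 and Igkv8-34 and overlapped Gm23694, an annotated miRNA gene. The strongest boundary of either array, chr6:70670001-70675000, had a strength of 1.44 and overlapped Igkv3-4, 31.7 kb inside the edge next to the J segments. Outside the array, the nearest boundaries were chr6:67335001-67340000 in Il12rb2, 218 kb from Igkv2-137 with a strength of 0.368, and chr6:70930001-70935000, 228 kb from Igkv3-1 with a strength of 1.20.

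**Figure D3:**
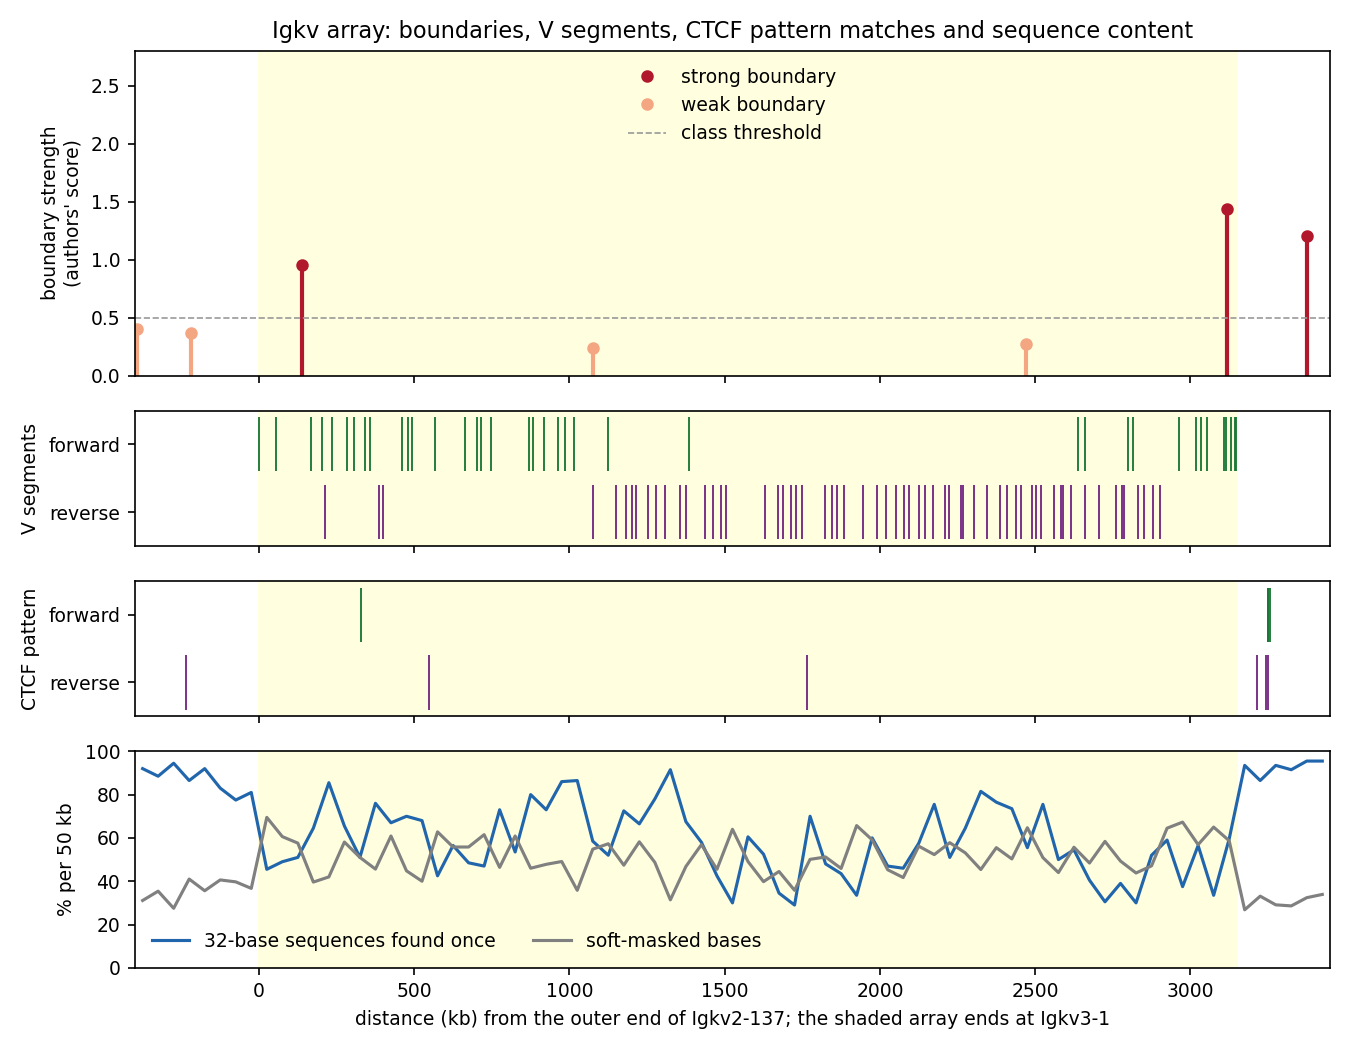
The Igkv array against distance in kb from the outer end of Igkv2-137, with the same panels and colours as the map of the Ighv array. The strong boundaries inside the array have strengths of 0.951 and 1.44, the weak ones lie far apart between them, and the CTCF pattern has only 3 matches in the shaded span.

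No boundary separated the V segments nearest to the D and J segments from the genes they recombine with. The gap from Ighv5-2 to the nearest D segment, Ighd3-1, was 53.2 kb and held no boundary, and neither did the 324 kb from the array edge to the far end of the constant genes. The D segments, Ighj1 to Ighj4, the constant genes from Ighm to Igha, and Adam6a and Adam6b, a pair of genes needed for male fertility, therefore shared an interval of 435 kb with 5 members, Ighv5-2 to Ighv5-6. In the kappa locus the gap from Igkv3-1 to Igkj1 was 18.4 kb, also with no boundary. Igkj1 to Igkj5 and Igkc shared an interval of 260 kb with the 3 members Igkv3-3, Igkv3-2 and Igkv3-1 and with Rpia, Eif2ak3 and Tex37. The other 97 Igkv members and 108 Ighv members lay across at least 1 boundary from the J segments.

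The boundaries divided the Ighv members into 7 intervals and the Igkv members into 5, an interval being the span between neighbouring boundaries. From the constant side, the Ighv intervals measured 435, 435, 710, 775, 170, 235 and 220 kb and held 5, 24, 38, 29, 4, 11 and 2 members. From the far end to the J segments, the Igkv intervals measured 355, 940, 1395, 645 and 260 kb and held 2, 25, 44, 26 and 3 members. The members were thus mostly in a few long intervals. The median member lay in an interval of 710 kb in Ighv and of 940 kb in Igkv, beside 280 kb for the median protein-coding gene. With each interval counted once, the medians were 435 kb for Ighv and 645 kb for Igkv, beside 265 kb over all 7347 intervals. The Igkv interval of 1395 kb, bounded by weak boundaries on both sides, was longer than 99.0% of all intervals.

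**Figure D4:**
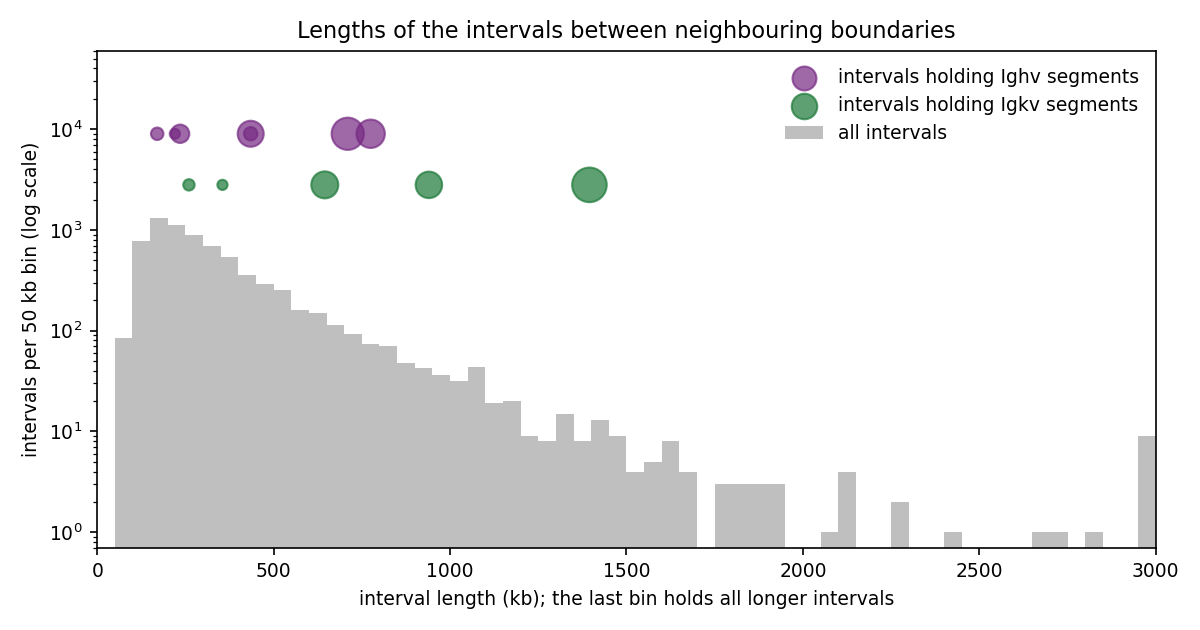
Length of all intervals between neighbouring boundaries in kb (grey bars, number of intervals per 50 kb bin on a log scale) with the intervals that hold Ighv or Igkv segments as circles above, whose area grows with the number of members. The largest circles lie at 710 and 775 kb for Ighv and at 1395 kb for Igkv, right of most grey bars.

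Some families lay within 1 interval and others were spread along the array. Of families with 2 members or more, 4 of 11 in Ighv and 8 of 13 in Igkv lay in 1 interval. All 26 Igkv4 members, the largest kappa family, lay in the interval of 1395 kb together with all 5 Igkv5 members. All 10 Igkv8 and all 9 Igkv6 members lay in the interval of 645 kb, with 6 of the 9 Igkv3 members; the other 3 Igkv3 members lay across the boundary of strength 1.44. In Ighv, the 10 Ighv5 and 9 Ighv2 members lay in the 2 intervals of 435 kb, on both sides of the boundary of strength 0.210. The 9 Ighv8 members were spread over 4 intervals, from 884 to 2187 kb from the array edge, and the 10 Igkv1 members over 3, from 54.2 to 2456 kb. The 53 Ighv1 members, the largest heavy chain family, were spread over 5 intervals and filled the far side: 23 of the 29 members in the interval of 775 kb and 10 of the 11 in that of 235 kb were Ighv1. The orientation of Igkv segments differed across the boundary in Igkv10-96. In the interval of 940 kb, 21 of 25 members lay on the forward strand, and in the next, of 1395 kb, 42 of 44 lay on the reverse strand.

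Few members lay at a boundary. With 10 kb added on each side of the boundary interval, the 5′ end of 7 of 113 Ighv members (6.19%, Wilson 3.03 to 12.2) and 3 of 100 Igkv members (3%, 1.03 to 8.45) lay at one, 10 of 213 together (4.69%, 2.57 to 8.43), beside 13.0% of protein-coding genes. At strong boundaries there were 4 of 213, beside 8.39% of protein-coding genes. The Ighv members were Ighv2-4 and Ighv5-9 at the first boundary, and then Ighv9-1, Ighv1-26, Ighv8-11, Ighv1-71 and Ighv1-84 at 1 boundary each. The Igkv members were Igkv10-96, Igkv3-5 and Igkv3-4. Neighbouring members share a boundary, so these counts rest on 6 and 2 boundaries. The shares also depend on how many boundaries each array holds. Whether members lay at boundaries less often than other sequence of the same arrays was not tested. The median distance to the nearest boundary was 118 kb for Ighv members and 213 kb for Igkv members, beside 61.1 kb for protein-coding genes, and the farthest member lay 378 kb away in Ighv and 673 kb in Igkv.

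Much of both arrays was repeated sequence, which limits how well reads can be placed. Of sampled 32-base sequences, 60% in the Ighv array and 57.7% in the Igkv array occurred once in the genome, beside 83.6% overall. Soft-masked bases, which mark interspersed and simple repeats, made up 45.6% and 52.0% beside 34.3%. The 10 boundaries inside the arrays lay in such sequence too: with 10 kb added, a median of 56.0% of 32-base sequences was unique around them, from 19% to 83%, beside a median of 90.0% for all boundaries. Windows of the genome with as little unique sequence as the arrays were also poor in boundaries at the median. At the Ighv length, 633 such windows on 12 chromosomes had a median of 3, from 0 to 10, where the array held 6. At the Igkv length, 546 on 9 chromosomes had a median of 4.00, from 0 to 11, where the array held 4. Such windows overlap each other, and those over the arrays themselves were not left out. Over every 25th window, the share of unique sequence and the number of boundaries had a Spearman rho of 0.463 (n = 998) at the Ighv length and 0.503 (n = 992) at the Igkv length. These windows overlap or adjoin, so the correlations are descriptions. The part of repeated sequence in the low count of the Igkv array was not tested.

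Many segments closely resembled another member. The median share of unique 32-base sequences was 56.1% in Ighv members and 57.4% in Igkv members, beside 60% and 57.7% in the arrays. The V exon of the median Ighv member was 94.9% identical to that of its nearest relative among the members, and the Igkv median was 93.1%. Of the Ighv members, 56 had a relative at 95% or more and 2 were fully identical, while 32 Igkv members had one at 95% or more and 0 were identical. Ighv1-71, which a boundary overlaps, and Ighv1-62-2 were the identical pair, and only 12.2% of 32-base sequences in Ighv1-71 were unique. The surroundings of the boundary there had the lowest unique share among the 10, 19%.

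The mice and the reference sequence are of different strains. An alternate scaffold of the reference carries the constant side and the first part of the heavy chain locus of a related strain, 129S1/SvImJ, and corresponded to about chr12:113100001-114500000. Of 32-base sequences unique in the reference, 67.3% on the constant side of the array were also in that scaffold, but 42.4% in the array part. Of the 51 Ighv members in that stretch, 6 had all their sampled 32-base sequences in the scaffold, repeated ones included. The stretch was set in steps of 100 kb, and members at its far end had 0% in the scaffold. Whether the scaffold reaches them was not tested, so both the 42.4% and the 6 of 51 may count sequence that it does not cover. Of the unique sequences around the boundary with a strength of 0.210, 95.6% were shared, around that of 2.55, 64.3%, and around that of 0.334, 31.2%. Strain and map cannot be told apart in these data, because 1 strain was mapped to 1 reference.

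CTCF pattern matches set the arrays apart from each other. The pattern searched was a 12-base core of the CTCF motif on both strands, which occurred 12728 times on chromosomes 1 to 19 and X, 4.95 per Mb. A match is a description of letters, not of a bound site, and sites that depart from the pattern are missed. In the Ighv array it had 55 matches, 22.7 per Mb, all on the reverse strand, the strand of every Ighv segment. In the Igkv array it had 3 matches, 0.953 per Mb, 1 forward and 2 reverse. Of 24942 windows of the Ighv length, 5 held as many matches as the array, all of them overlapping windows of chromosome 5. The 55 matches had 46 distinct 32-base sequences, so they were partly copies of each other, and none lay in soft-masked sequence. With 1 mismatch allowed, the Ighv array had 220 matches, 90.8 per Mb beside 83.8 in the genome, of which 78.2% were on the reverse strand beside 50%. The Igkv array then had 198, 62.9 per Mb. The excess in Ighv was therefore that of the full pattern. The strand skew in Ighv was also seen with 1 mismatch allowed. That search takes in the full matches too, so it is not a separate observation of the skew.

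**Figure D5:**
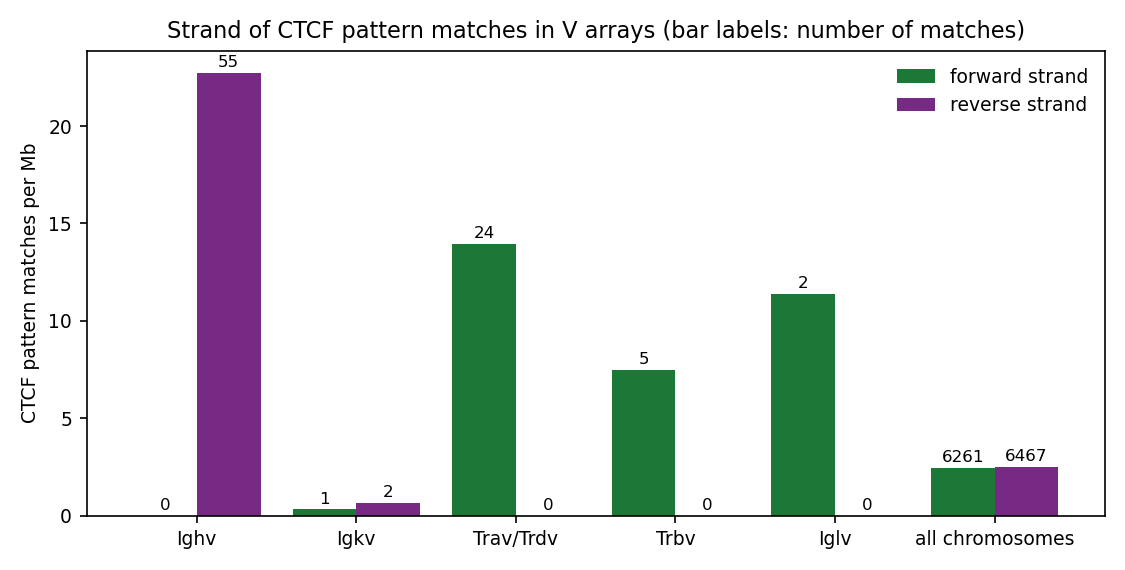
CTCF pattern matches per Mb on the forward (green) and reverse strand (purple) of 5 V arrays and of chromosomes 1 to 19 and X, with the number of matches above each bar. All 55 matches of the Ighv array are on the reverse strand, and all 24 of the Trav and Trdv array on the forward strand.

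In the part of the array nearest to the D and J segments, the matches lay right behind the V segments. They are shown for Ighv5-9 and Ighv2-5, on the strand of the segment, and beside them stand the matches next to the boundary of strength 2.55 on the forward strand, with the 12-base pattern in capitals.
Ighv5-9: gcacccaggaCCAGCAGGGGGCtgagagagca
Ighv2-5: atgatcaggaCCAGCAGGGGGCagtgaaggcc
Constant side, first: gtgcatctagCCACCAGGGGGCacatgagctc
Constant side, second: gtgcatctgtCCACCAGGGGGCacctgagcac
A match lay within 1 kb of the 3′ end of 19 of 113 Ighv members, on the strand of the segment in all 19, beside 0 of 100 Igkv members and 2.15% of protein-coding genes. Of these, 9 of the 10 Ighv5 members had theirs with its midpoint 62 to 64 bases past the 3′ end and 7 of the 9 Ighv2 members at 66 to 70 bases, just past the recombination signal. Ighv4-1 and Ighv3-3 had theirs at 66 bases, and Ighv1-12 at 476. The match of Ighv5-2 lay just outside the array edge and was the only one in the gap to Ighd3-1. The 2 Ighv families named thus carried 16 of the 19. With the array cut into 3 stretches of 807 kb, the one nearest to the D and J segments held 19 matches, the middle one 9 and the farthest 27.

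Of the 55 matches, 37 lay more than 1 kb from the 3′ end of any member, and some of these stood at a nearly fixed place before Ighv1 segments, the largest heavy chain family. In a look made after the values were seen, 12 of the 53 Ighv1 members had their nearest match 1 to 2 kb before the 3′ end. These 12 lay on the far side, with the match on their own strand and thus upstream of the segment. In 10 of them the distance to the 3′ end was 1.19 to 1.27 kb, which placed the match 739 to 817 bases before the annotated 5′ end. Ighv1-50 and Ighv1-59 had theirs 1260 and 1277 bases before it. Other Ighv1 members, among them Ighv1-63, Ighv1-75 and Ighv1-82, had their nearest match more than 2 kb before the 3′ end. The share of protein-coding genes with a match at such a place was not counted. The matches of Ighv1-53 and Ighv1-67 are shown on the strand of the segment, with the pattern in capitals, because they show how alike the copies are.
Ighv1-53: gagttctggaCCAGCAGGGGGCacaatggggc
Ighv1-67: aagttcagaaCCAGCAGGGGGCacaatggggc
The 12 matches had 5 distinct 32-base sequences. The Ighv5 and Ighv2 families thus carried the match behind the segment, and these Ighv1 members before it.

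Few boundaries of the arrays had a CTCF match beside them. Of the 6 Ighv boundaries, 2 had a match in the interval widened by 10 kb, that of Ighv5-9 at the first boundary and 1 at the boundary in Ighv1-71, and 0 of the 4 Igkv boundaries had one, beside 23.9% of all boundaries. With so few boundaries, no difference from that share can be read. The boundary of strength 2.55 had 2 matches, 2.56 and 3.91 kb from its midpoint on the side of the locus. Both were on the forward strand, so that they face the 55 reverse matches of the array across the D, J and constant genes.

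Other antigen receptor V arrays, also in germline order in neurons, differed in how few boundaries they held for their length. The Trav and Trdv array on chromosome 14, from Trav1 to Trdv5, held 113 V segments in 1.72 Mb and 1 boundary, where the genome density gives 4.93. The Trbv array, with 22 segments from Trbv1 to Trbv31 in 0.667 Mb, held 0 boundaries, as did the Iglv array with 3 segments in 0.176 Mb, where 1.91 and 0.504 would fall. The spans differed in other genes. The Trav and Trdv array held 3 protein-coding genes and the Trbv array 14, but Ighv, Igkv and Iglv held 0. The nearest boundary outside Trav1, 75.4 kb away, overlapped the odorant receptor gene Olfr1513. Of windows of the same length, 3.01% held as few boundaries as the Trav and Trdv array, 8.57% as few as Trbv and 51.5% as few as Iglv, where the median window also held 0. No V segment of these arrays lay at a boundary, 0 of 113, 0 of 22 and 0 of 3, which for the first allows up to 3.29% by the Wilson interval. The Trav and Trdv array had the least unique sequence, 42.9%. All its 24 CTCF matches lay on the forward strand, as did 112 of its 113 segments. The 5 Trbv matches were also on the strand of most Trbv segments, whereas the 2 Iglv matches lay on the strand opposite to the 3 segments. Ighv thus had more boundaries per Mb than the other arrays in count, 2.48 against 1.27 in Igkv and 0.581 in Trav and Trdv, but the Poisson intervals of these densities overlap.

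The genes that carry out or steer V(D)J recombination and early B cell development were followed as a list of 35. The list runs from the recombinase genes Rag1 and Rag2 and the end-joining genes to B cell transcription factors, cohesin subunits and receptor genes. Of these, 4 had the 5′ end at a boundary (11.4%, Wilson 4.54 to 26), beside 13.0% of protein-coding genes, so the list was near the background. They were Dntt, which adds untemplated bases at the joints (strength 1.75), Ung, a uracil glycosylase that acts in class switching (1.10), Nipbl, the cohesin loader (0.813), and Xrcc5, which encodes the Ku80 end-joining subunit (0.595). Rag1 and Rag2, which lie side by side, were 38 and 62.8 kb from their nearest boundary.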

How the data were processed

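The members and lists were chosen with earlier results of these data known. The authors called boundaries on GRCm38 from 1 contact matrix of both replicates, per the series' design text and the submitters' processing notes. The deposited list gives 5000 bp intervals with a class and a strength, a score from the authors. Its scale, like the aligner, the boundary caller and their settings, was not given in the sources used here. The list holds no counts, so depth is unknown.

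Members came from a GENCODE annotation of the same build and were placed against the boundaries with python 3.11.15, numpy 2.4.6, scipy 1.17.1, pandas 2.3.3, numba 0.67.0 and biopython 1.88. Arrays ran between the outer ends of the outermost members, and a boundary was counted inside by its midpoint. A gene was at a boundary when its 5′ end lay in the interval widened by 10 kb. Unique 32-base sequences were counted over the chromosomes and unplaced scaffolds, sampled every 250 bp, or every 10 bp in the loci. All sequences were read from the GRCm38 reference. Scripts were tested on simulated data. No test was run, since 1 list has no replicates. Named genes were the outermost members, those beside or at a boundary, neighbouring protein-coding genes, the D, J and C genes, and listed genes at a boundary. Segments named for a sequence, strand or identity, and Rag1 and Rag2, were chosen after their values were seen.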

Additional observations from a re-analysis of the deposited data

How the results depend on the processing

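Of 50 alternatives, 25 left the value within the spread allowed and 25 moved it. The counts of boundaries stayed at 6 and 4 with neighbours merged, with pseudogenes or the whole locus setting the edges, and with 50 kb added. With strong boundaries alone they were 2 and 2, the Ighv density fell to 0.826 per Mb, and Ighv segments at a boundary fell to 2; the 1842 strongest boundaries left 0 and 1. Ighv segments at a boundary numbered 2 for the interval alone (1.77% beside 3.45% of protein-coding genes) and 26 with 50 kb added (23% beside 44%); Igkv segments then numbered 13. With pseudogenes they were 11 of 191, 5.76%, close to the 6.19% of members. Between strong boundaries alone, the median member lay in an interval of 1580 kb in Ighv and of 2980 kb in Igkv. The median over all 4032 such intervals, each counted once, was 400 kb. Between all boundaries, with each interval once, the medians were 435 and 645 kb. The repeated share was 40% (Ighv) and 42.3% (Igkv) by 32-base and 25.7% and 28.1% by 50-base sequences. CTCF matches numbered 220 and 198 with 1 mismatch, and 0 and 1 with the reversed pattern. Ighv signals numbered 48 with a looser heptamer and at most 3 nonamer mismatches together, and 25 with the full heptamer and at most 2. The other spacer gave 1 in Ighv and 6 in Igkv. The spacer of 1 base more or less was added after the data were seen. No replicate could be left out, and no paired analysis was possible because the authors combined both replicates in 1 list. Depth and contact counts were not available to set a smallest visible domain.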
